A study of Homo sapiens with 8 samples.

Results

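The TRIM genes of antiviral defence examined here were TRIM5, TRIM14, TRIM21, TRIM22, TRIM25, TRIM26, TRIM38 and TRIM56, which are 8 of the 58735 genes in the deposited table. They were chosen by name as TRIM genes of innate immunity, and the choice also used the contrast below, since TRIM21 and TRIM22 were known to be among the genes that were most raised in it. Poly(A) RNA was sequenced from PC3, a human prostate cancer cell line, in 4 libraries labelled siPRMT7 (PRMT7 knockdown) and 4 labelled siCtrl (negative control, labelled WT). Both groups were transfected by lipofection with synthetic RNA and cultured for another 48 h, and no untransfected cells were analysed here. The titles begin the group names with si, whereas the library names begin them with sh. All libraries are one cell line, and nothing in the labels says that replicates came from separate cultures, so the spread between libraries may be technical. In bulk RNA, fewer cells that express a gene and less RNA per cell cannot be told apart.

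TRIM proteins share a tripartite motif, usually a RING finger that recruits ubiquitin-conjugating enzymes, B-box zinc fingers and a coiled coil, followed by a domain that picks the target. Several are made after interferon and act at different points of antiviral defence: TRIM5 and TRIM22 act on viral components, TRIM21 acts on antibody-coated virus, and TRIM25, TRIM14, TRIM56, TRIM26 and TRIM38 act on the signalling chain between nucleic acid sensors and interferon genes. TRIM14 differs from the others in having no RING finger. PRMT7 is an arginine methyltransferase, and the comparison asks which transcripts differ when it is targeted.

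RefSeq promoters (250 bases before to 50 after the start, GRCh38.p14) were given for 7 of the 8 genes, all except TRIM22. They were searched on both strands for the core of the interferon response element (GAAA, any 2 bases, GAAA) and for the core of the STAT site, TTCNNNGAA. The interferon response core was found in 4 of the 7, TRIM21, TRIM5, TRIM14 and TRIM26, against 3.57% of 35116 promoters of the same length. The STAT core was found in 0 of the 7, against 7.66% of those promoters. In the list of interferon-stimulated genes described below, 25 of 41 promoters held the interferon response core, and among other TRIM family genes 6 of 53 did. The promoters with the core are shown for the letters of the match, with that of TRIM25, the most abundant of the 8, as one in which it was not found. They lie at chr11:4393653-4393952 (TRIM21, minus strand), chr11:5685025-5685324 (TRIM5, minus strand), chr9:98119173-98119472 (TRIM14, minus strand), chr6:30213357-30213656 (TRIM26, minus strand) and chr17:56914000-56914299 (TRIM25, minus strand). Each is written 5′ to 3′ on the strand of the gene, with matches to the interferon response core on either strand in capitals.
TRIM21: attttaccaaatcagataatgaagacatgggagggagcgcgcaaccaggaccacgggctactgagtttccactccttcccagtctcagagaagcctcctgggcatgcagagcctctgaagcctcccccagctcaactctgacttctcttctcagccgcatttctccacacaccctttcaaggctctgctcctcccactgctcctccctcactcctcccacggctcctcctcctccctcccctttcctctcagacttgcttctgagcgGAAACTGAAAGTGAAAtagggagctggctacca
TRIM5: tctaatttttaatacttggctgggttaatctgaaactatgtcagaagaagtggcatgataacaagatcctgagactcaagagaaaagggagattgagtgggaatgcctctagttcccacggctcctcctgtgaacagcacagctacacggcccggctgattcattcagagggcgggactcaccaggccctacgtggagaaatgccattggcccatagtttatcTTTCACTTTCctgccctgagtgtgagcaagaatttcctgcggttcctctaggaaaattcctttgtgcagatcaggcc
TRIM14: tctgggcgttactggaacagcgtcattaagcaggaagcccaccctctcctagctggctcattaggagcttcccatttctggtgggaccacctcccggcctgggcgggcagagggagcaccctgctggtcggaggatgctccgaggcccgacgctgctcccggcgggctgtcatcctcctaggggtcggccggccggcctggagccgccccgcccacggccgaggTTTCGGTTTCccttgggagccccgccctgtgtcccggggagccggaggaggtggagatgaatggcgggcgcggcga
TRIM26: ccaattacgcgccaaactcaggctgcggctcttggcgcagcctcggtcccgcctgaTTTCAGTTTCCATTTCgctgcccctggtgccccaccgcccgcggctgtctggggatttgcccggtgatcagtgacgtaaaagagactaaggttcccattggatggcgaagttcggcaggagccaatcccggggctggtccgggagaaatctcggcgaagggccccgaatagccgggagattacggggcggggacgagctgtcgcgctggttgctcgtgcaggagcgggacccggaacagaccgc
TRIM25: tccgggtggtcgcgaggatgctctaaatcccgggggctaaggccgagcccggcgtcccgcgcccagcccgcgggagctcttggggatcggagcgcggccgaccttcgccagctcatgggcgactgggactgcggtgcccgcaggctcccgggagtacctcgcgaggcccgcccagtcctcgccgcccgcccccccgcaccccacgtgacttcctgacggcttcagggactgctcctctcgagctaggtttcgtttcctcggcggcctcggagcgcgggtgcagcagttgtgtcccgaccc

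With the first transcribed base counted as 1, the TRIM21 promoter held 2 matches that overlap, at 18 to 27 and at 24 to 33, both on the strand of the gene and downstream of the start. The TRIM5 match lay at -27 to -18 and the TRIM14 match at -26 to -17, both on the opposite strand and just before the start. TRIM26 also held 2 matches that overlap, at -194 to -185 and -188 to -179. The promoters of TRIM38 (chromosome 6) and TRIM56 (chromosome 7) held neither motif within this window. Of the genes that held the core, TRIM21 and TRIM5 did not overlap between siPRMT7 and siCtrl libraries in their values below, and TRIM14 and TRIM26 did. TRIM25, TRIM38 and TRIM56, in which it was not found, overlapped too. TRIM22 had no promoter to search, and a link between the core and the values was not tested. A match is a run of letters and not a measured binding site.

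The libraries held 14526030 to 15724862 fragments in genes, and 3 fragments, the floor used here, were at most 0.207 ppm of a library. The library siPRMT7 replicate 2 stood apart from the other 7. Its score on principal component 1 (31.4% of variance) was 28.4 and those of the others ranged from -11.9 to 7.36, so values without it are given beside those it moves. The epithelial keratin KRT8 was at 53.9 to 66.8 FPKM (fragments per kilobase of gene length, scaled to library size) and EPCAM at 6.87 to 8.06 FPKM over all libraries. KLK3, which encodes the prostate antigen PSA, was listed at 0 in all 8 libraries. Of 4 blood cell markers, CD3E was listed at 0 in all libraries and CD14 reached 1.27 FPKM. The summed blood markers were at 0.921 to 1.39 FPKM in siPRMT7 libraries and 0.641 to 1.01 FPKM in siCtrl libraries, and their part in the results was not tested. Of the fibroblast and endothelial markers, COL1A1 was at 6.13 to 7.53 FPKM, COL1A2 at or below 0.0280 FPKM and PECAM1 at 2.83 to 3.64 FPKM.

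PRMT7 itself had 4.62, 4.31, 5.01 and 4.82 FPKM in the libraries labelled siPRMT7, against 5.24, 4.86, 5.10 and 5.25 FPKM in siCtrl libraries. The mean was 8.29% lower in the siPRMT7 libraries, and the groups overlapped, with 3 of the 4 siPRMT7 libraries below every siCtrl library. The two-sided exact permutation test did not pass (p = 0.0571, n = 4 each), where the smallest p the design allows is 0.0286. The difference was -0.10 in log2 units. On the TPM scale, which gives all libraries an equal total, it was -0.14, with an exact permutation p of 0.0286. That scale also lowered the median log2 difference over all genes tested, to -0.035 from -0.0015. Without siPRMT7 replicate 2 it was -0.072, with an exact permutation p of 0.114. The groups are called here by their labels.

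TRIM22 and TRIM21 were above every siCtrl library in all 4 siPRMT7 libraries, TRIM5 was above them by less, and the other 5 genes overlapped between groups. Since the genes were chosen with this contrast known, their differences are given as a description, with the interval from the fit over all genes and no test. All 8 passed the filter on low values, and 7 of the 8 had a higher mean in siPRMT7 libraries, with a median log2 difference of 0.089, against -0.0015 over all 13436 genes tested. With limma's moderated test and Benjamini-Hochberg adjustment over all genes, 0 of the 8 had an adjusted p under 0.05, where 0.0149% of all genes did. At an unadjusted p under 0.05 there were 3 of the 8, against 13.2% of all genes. With library weights 2 of the 8 were called, TRIM21 and TRIM22, where 0.432% of all genes were. With voom on rebuilt fragments 1 was called, TRIM22, where 0.0893% were. Every siPRMT7 library was above every siCtrl library for 3 of the 8, TRIM22, TRIM21 and TRIM5, and for 4.14% of all genes. Every siPRMT7 library was below for 0 of the 8, and for 4.43% of all genes. Each of these counts above 0 includes TRIM22, and all but that with voom include TRIM21, the genes whose rise entered the choice of the 8, so nothing is read from them against the shares of all genes.

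**Figure D1:**
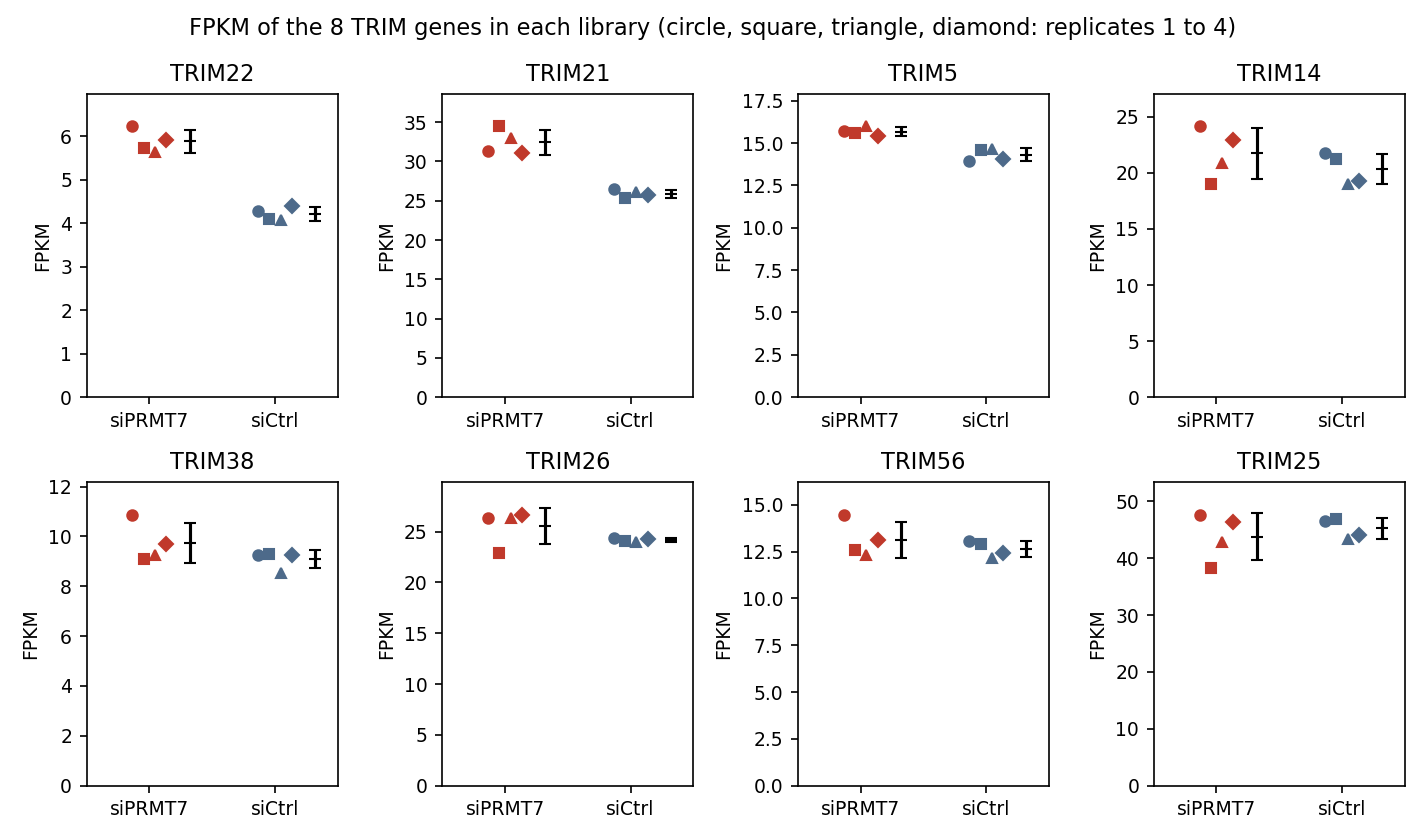
FPKM (y axis, from 0) of each of the 8 TRIM genes in each library, siPRMT7 in red and siCtrl in blue, with the mean and SD of 4 libraries in black beside the points. For TRIM22 the siPRMT7 libraries sit between 5.64 and 6.23 FPKM and the siCtrl libraries between 4.08 and 4.40 FPKM, while for TRIM25 the groups overlap.

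Among the genes whose products act directly on virus, TRIM22 (ENSG00000132274, chromosome 11, 5689689 to 5737089, plus strand), an interferon-induced protein known to repress HIV-1 transcription, had the largest difference of the 8. It had 6.23, 5.73, 5.64 and 5.91 FPKM in siPRMT7 libraries, against 4.28, 4.08, 4.08 and 4.40 FPKM in siCtrl libraries. The groups did not overlap, and by log2 difference the gene ranked 191 of the 13436 genes tested, from the highest down. The means were 5.88 ± 0.260 FPKM in siPRMT7 libraries and 4.21 ± 0.156 FPKM in siCtrl libraries (SD, n = 4 each), a ratio of 1.40. On the log2(FPKM + 1) scale, which understates the change of a gene this low, the difference was 0.40, with a 95% interval from 0.29 to 0.51. It was 0.47 with a pseudocount of 0.1 and 0.48 with voom. Between 372 and 583 fragments lay behind each value, with a counting error of at most 5.18%, against a difference between the means of 39.7%.

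TRIM21 (ENSG00000132109, chromosome 11, 4384897 to 4393696, minus strand) encodes the cytosolic antibody receptor that sends antibody-coated virus to the proteasome, and is also the autoantigen Ro52. It had 31.3, 34.5, 33.0 and 31.1 FPKM in siPRMT7 libraries, against 26.5, 25.3, 26.1 and 25.7 FPKM in siCtrl libraries. Again the groups did not overlap, siPRMT7 replicate 2 was the highest of all, and the gene ranked 376 by log2 difference. The means were 32.5 ± 1.6 FPKM in siPRMT7 libraries and 25.9 ± 0.496 FPKM in siCtrl libraries (SD, n = 4 each), a ratio of 1.25 and a log2 difference of 0.31 (95% interval 0.21 to 0.41). Without siPRMT7 replicate 2 the ratio was 1.23.

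TRIM5 (ENSG00000132256, chromosome 11, 5663557 to 5938619, minus strand), the restriction factor that recognises the capsid of incoming retroviruses, differed less but evenly. It had 15.7, 15.6, 16.0 and 15.4 FPKM in siPRMT7 libraries, against 14.0, 14.6, 14.7 and 14.0 FPKM in siCtrl libraries. The 4 siPRMT7 libraries were above every siCtrl library by a narrow margin. Its ratio was 1.10, and the log2 difference of 0.12 (95% interval 0.039 to 0.21) was 0.085 when every library was brought to one total. With that one total the median over all genes tested was -0.035, against -0.0015 without it. The spread between libraries was the smallest of the 8 genes in the siPRMT7 group, with an SD of 1.63% of the mean.

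TRIM25 (ENSG00000121060, chromosome 17, 56836387 to 56914080, minus strand), the ligase that activates the RNA sensor RIG-I, was the most abundant of the 8 and the 1 with a lower mean in siPRMT7 libraries. It had 47.7, 38.3, 42.9 and 46.3 FPKM in siPRMT7 libraries, against 46.6, 46.9, 43.4 and 44.0 FPKM in siCtrl libraries. Replicates 2 and 3 of siPRMT7 were below every siCtrl library and replicate 1 was above them all. The log2 difference was -0.049, with a 95% interval from -0.20 to 0.11. It was 0.012 without siPRMT7 replicate 2 and -0.091 without replicate 1. At 5468 to 7130 fragments a library, the counting error was at most 1.35%, far below the spread of the siPRMT7 libraries (SD 9.55% of the mean).

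TRIM14 (ENSG00000106785, chromosome 9, 98069275 to 98119212, minus strand), which serves as an adaptor of the mitochondrial protein MAVS, spread as widely. It had 24.2, 19.0, 20.9 and 22.9 FPKM in siPRMT7 libraries, against 21.7, 21.2, 19.0 and 19.3 FPKM in siCtrl libraries. Replicates 1 and 4 of siPRMT7 were above every siCtrl library, and replicate 2 was below them all. The log2 difference was 0.090 (95% interval -0.086 to 0.27), with 0.15 without siPRMT7 replicate 2 and 0.039 without replicate 1.

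TRIM56 (ENSG00000169871, chromosome 7, 101085439 to 101097967, plus strand), known to promote interferon induction through the adaptor STING, had 14.5, 12.6, 12.3 and 13.1 FPKM in siPRMT7 libraries, against 13.1, 12.9, 12.2 and 12.4 FPKM in siCtrl libraries. These groups overlapped broadly, and the log2 difference was 0.047 (95% interval -0.078 to 0.17). It was 0.0020 without siPRMT7 replicate 1, the highest library, and at most 0.075 with any other library left out.

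The remaining 2 are best known for restraining the pathway. TRIM26 (ENSG00000234127, chromosome 6, 30184455 to 30213427, minus strand), reported to send nuclear IRF3 for degradation, had 26.3, 22.9, 26.3 and 26.7 FPKM in siPRMT7 libraries, against 24.4, 24.1, 23.9 and 24.3 FPKM in siCtrl libraries. Replicates 1, 3 and 4 of siPRMT7 were above every siCtrl library, whereas replicate 2 was below them all. The log2 difference was 0.075 (95% interval -0.043 to 0.19), and 0.12 without siPRMT7 replicate 2.

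TRIM38 (ENSG00000112343, chromosome 6, 25962802 to 25991226, plus strand), a negative regulator of signalling through TAB2 and the adaptor TICAM1, had 10.9, 9.09, 9.26 and 9.71 FPKM in siPRMT7 libraries, against 9.24, 9.29, 8.54 and 9.24 FPKM in siCtrl libraries. The groups overlapped through replicates 2 and 3 of siPRMT7, and the log2 difference was 0.089 (95% interval -0.046 to 0.22). Without siPRMT7 replicate 1, the highest library, it was 0.039.

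**Figure D2:**
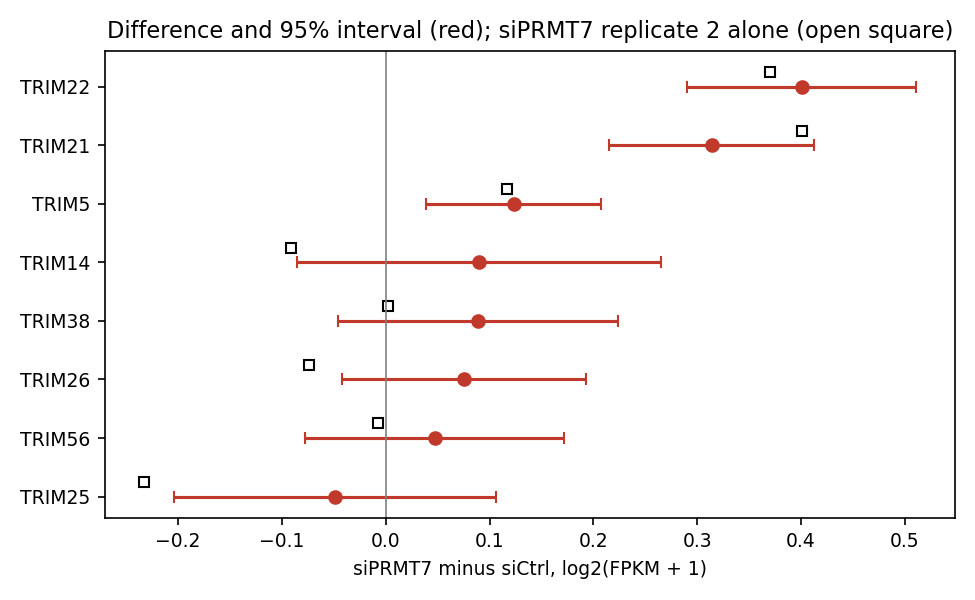
Difference of the siPRMT7 and siCtrl means of log2(FPKM + 1) for the 8 TRIM genes (red points, with bars for the 95% interval from the fit over all genes, n = 4 each) and the value of siPRMT7 replicate 2 alone against the siCtrl mean (open squares). The intervals of TRIM22 (0.29 to 0.51), TRIM21 (0.21 to 0.41) and TRIM5 (0.039 to 0.21) lie above 0 and those of the other 5 include it.

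The 8 genes varied differently from library to library. In siPRMT7 replicate 1 and replicate 4 all 8 were above their siCtrl mean, in replicate 3 there were 6, and in replicate 2 there were 4. Replicate 1 held the highest siPRMT7 value of 5 genes. Replicate 2 held the lowest siPRMT7 value of 4 genes, TRIM14, TRIM25, TRIM26 and TRIM38, and at the same time the highest of TRIM21. In it TRIM21 was 0.40 above its siCtrl mean in log2 units and TRIM22 0.37 above, while TRIM25 was at -0.23. Without that library all 8 genes had a higher mean in siPRMT7 libraries, with a median log2 difference of 0.13, and TRIM22 and TRIM21 were still the largest at 0.41 and 0.28. Without siPRMT7 replicate 1 the median was 0.050, with 7 of the 8 higher, and TRIM22 and TRIM21 were at 0.38 and 0.33.

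**Figure D3:**
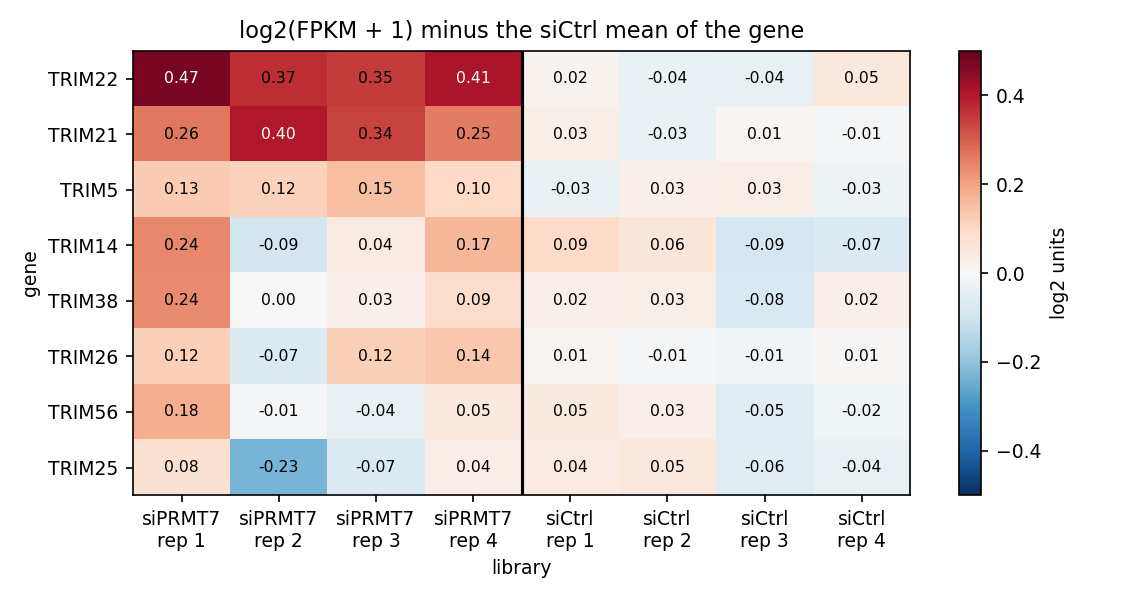
Level of each TRIM gene (rows) in each library (columns) as log2(FPKM + 1) minus the siCtrl mean of that gene, with red above and blue below it. TRIM22, TRIM21, TRIM5 and, by as little as 0.0021 in replicate 2, TRIM38 are positive in all 4 siPRMT7 libraries, and siPRMT7 replicate 2 holds the lowest value, -0.23 for TRIM25.

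FPKM is per length, so levels of the genes can be set side by side. In siPRMT7 libraries the order of the means was TRIM25 (43.8 FPKM), TRIM21 (32.5), TRIM26 (25.6), TRIM14 (21.8), TRIM5 (15.7), TRIM56 (13.1), TRIM38 (9.73) and TRIM22 (5.88 FPKM). There TRIM26 (22.9 to 26.7 FPKM) and TRIM14 (19.0 to 24.2 FPKM) overlapped, although TRIM26 was the higher of the pair within each of the 4 libraries, and no other neighbours in the order did. In siCtrl libraries the order was the same, at 45.2, 25.9, 24.2, 20.3, 14.3, 12.6, 9.08 and 4.21 FPKM, and no neighbours overlapped. TRIM22, with the largest difference, was thus the lowest of the 8 in both groups.

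TRIM21, TRIM22 and TRIM5 all lie on the short arm of chromosome 11. TRIM22 runs within the annotated span of TRIM5 on the opposite strand, and its annotated start is 4615 bases from the RefSeq start of TRIM5, with the genes pointing away from each other. The library kit named in the labels does not mark strand, yet TRIM5 and TRIM22 share 0 exonic bases in GENCODE release 29, and 0 of the 50-base stretches of any of the 8 genes occur in another of the 8. Of the exonic bases of TRIM22, 10.7% are shared with the olfactory receptor gene OR56B1, which was listed at 0 in the table. TRIM14 shares 7.72% with NANS on the opposite strand, which averaged 6.95 FPKM, so part of its fragments cannot be assigned with certainty. TRIM25 shares 8.80% of its exonic bases with other genes, TRIM5 7.95% and TRIM38 2.90%. For TRIM25 these include C17orf67 (1.39%, at 21.4 FPKM on average) and DGKE (0.842%, at 9.75 FPKM). TRIM21, TRIM26 and TRIM56 share no exonic bases. Transcripts of other genes hold 13.4% of the 50-base stretches of TRIM22, 4.76% of those of TRIM56 and 0% of those of TRIM21 and TRIM26.

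Genes that lie close to the 8 were mixed in direction. Of 114 tested genes within 500000 bases of a member, 0 were called with limma over all genes and 0 with voom. At an unadjusted limma p under 0.05 there were 27, where 13.2% of all genes were. In that list 74 were higher and 40 lower, with a median log2 difference of 0.046. Of all genes tested, 6645 were higher and 6791 lower. The loci differed: 20 of 23 were higher near TRIM56, 27 of 37 near TRIM38 and 16 of 27 near TRIM26. Near TRIM25 5 of 11 were higher, near TRIM14 4 of 9 and near TRIM5 2 of 4. Of the 3 near TRIM21 all were lower in siPRMT7 libraries, STIM1 (-0.098), RRM1 (-0.22) and TRIM68 (-0.012), and so were the 2 near TRIM22, TRIM6 (-0.13) and FAM160A2 (-0.20); apart from RRM1, these were named after their values were seen. The 4 with the smallest p were SLC12A9-AS1, the histone gene HIST1H2BG, the ribonucleotide reductase subunit RRM1 and AC015912.3. Their limma adjusted p-values were 0.125, 0.125, 0.147 and 0.155. RRM1 had 17.5 ± 0.784 FPKM in siPRMT7 libraries and 20.6 ± 0.577 FPKM in siCtrl libraries (SD, n = 4 each). HIST1H2BG, near TRIM38, had 83.7 ± 6.80 FPKM in siPRMT7 libraries and 65.8 ± 3.00 FPKM in siCtrl libraries, and it is one of many near-identical histone genes. AC015912.3, near TRIM25, had 55.2 ± 6.55 FPKM in siPRMT7 libraries and 38.7 ± 4.45 FPKM in siCtrl libraries. SLC12A9-AS1, near TRIM56, averaged 0.316 FPKM in siPRMT7 libraries, with 1 fragment in the lowest, and 1.32 FPKM in siCtrl libraries.

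Other TRIM family genes were more often lower than higher in siPRMT7 libraries, by small amounts. Of the 70, 37 passed the filter on low values, and TRIM34, which lies beside TRIM6 and is a close relative of TRIM5 and TRIM22, was below it at 0.146 FPKM in siPRMT7 libraries and 0.0653 FPKM in siCtrl libraries. Of the 37, 12 were higher and 25 lower, with a median log2 difference of -0.028. With limma over all genes 0 were called, 4 of the 37 had an unadjusted p under 0.05 (13.2% of all genes did), and 0 were called with voom. The 6 with the smallest p were TRIM69, TRIM8, PML, TRIM47, TRIM24 and TRIM59, with limma adjusted p-values from 0.219 to 0.507. TRIM69, an interferon-induced gene, had 17.1 ± 1.28 FPKM in siPRMT7 libraries and 14.7 ± 0.388 FPKM in siCtrl libraries, a log2 difference of 0.20 and the third largest of the 45 TRIM family genes tested after TRIM22 and TRIM21. Its promoter held the interferon response core, and so did those of TRIM16 (log2 difference 0.12), TRIM44 (-0.12) and TRIM2 (-0.10) among the other genes tested. TRIM8, a regulator of cytokine signalling, had 20.5 ± 0.574 FPKM in siPRMT7 libraries and 19.1 ± 0.130 FPKM in siCtrl libraries. PML, the organiser of nuclear bodies, had 18.5 ± 1.20 FPKM in siPRMT7 libraries and 16.9 ± 0.355 FPKM in siCtrl libraries. TRIM47 had a log2 difference of 0.14, the transcriptional co-regulator TRIM24 one of -0.12, and TRIM59 one of -0.13. In level, TRIM25 and TRIM21 ranked 2 and 3 among the 78 TRIM family genes in siCtrl libraries, behind TRIM28.

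**Figure D4:**
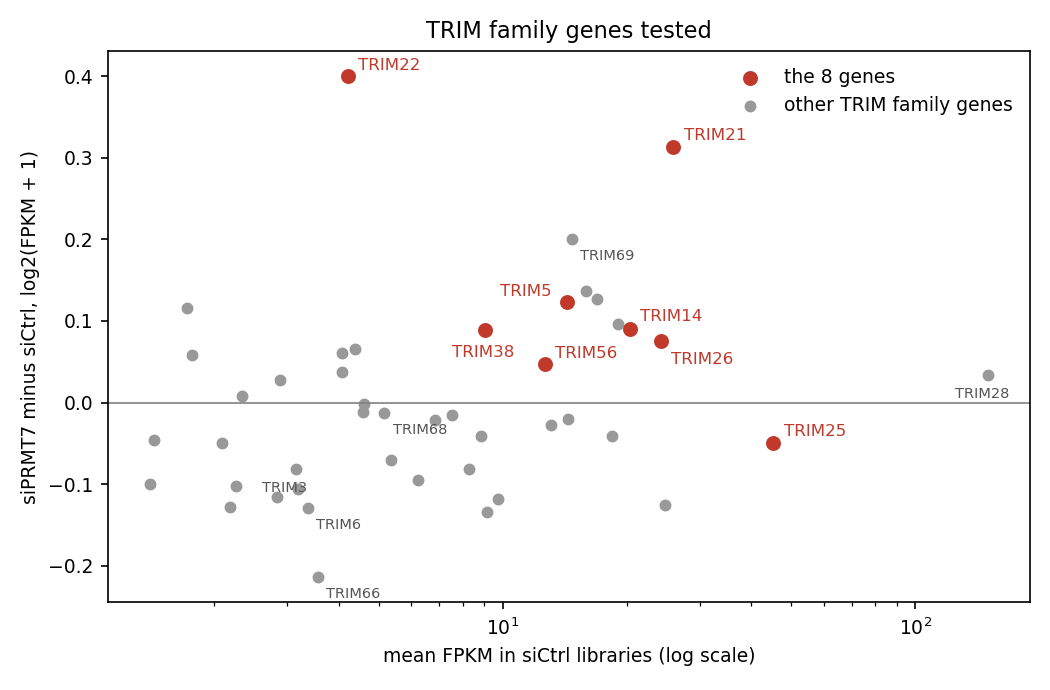
Each point is 1 of the 45 TRIM family genes tested, by its mean FPKM in siCtrl libraries (x axis, log scale) and its difference between siPRMT7 and siCtrl libraries in log2(FPKM + 1) (y axis). TRIM22 (0.40) and TRIM21 (0.31) stand above TRIM69 (0.20), and the median of the 37 other genes is -0.028.

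Proteins that the 8 bind, modify or work beside had transcripts that differed by small amounts. Of 23 tested, 15 were higher and 8 lower, with a median log2 difference of 0.023. With limma over all genes 0 were called, 3 of the 23 had an unadjusted p under 0.05 (13.2% of all genes did), and 0 were called with voom. The RNA sensor DDX58 (RIG-I), the target of TRIM25, had 59.7 ± 2.65 FPKM in siPRMT7 libraries and 52.7 ± 2.64 FPKM in siCtrl libraries, a log2 difference of 0.18 with a limma adjusted p of 0.227. The helicase DDX41, a target of TRIM21, had 38.7 ± 1.42 FPKM in siPRMT7 libraries and 35.7 ± 0.968 FPKM in siCtrl libraries, with a limma adjusted p of 0.309. The transcription factor IRF3 had 20.8 ± 1.52 FPKM in siPRMT7 libraries and 18.7 ± 0.825 FPKM in siCtrl libraries, with a limma adjusted p of 0.321. ZC3HAV1, the antiviral protein ZAP for which TRIM25 is a cofactor, had 49.5 ± 2.21 FPKM in siPRMT7 libraries and 46.3 ± 1.16 FPKM in siCtrl libraries, with a limma adjusted p of 0.392. DDX58 and DDX41 had every siPRMT7 library above every siCtrl library, where 4.14% of all genes did. In IRF3 and ZC3HAV1 3 of the 4 siPRMT7 libraries were above every siCtrl library.

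Interferon-stimulated genes, to which TRIM22 and TRIM21 belong by function, were mostly higher in siPRMT7 libraries. Of 49 tested, 45 were higher and 4 lower, with a median log2 difference of 0.19. Every siPRMT7 library was above every siCtrl library in 32, where 4.14% of all genes tested were. With limma over all genes 1 was called, RSAD2, where 0.0149% of all genes were. At an unadjusted limma p under 0.05 there were 35, where 13.2% of all genes were. RSAD2, which encodes viperin, rose with a log2 difference of 0.54 (limma adjusted p = 0.0125), a call that was lost without siPRMT7 replicate 1 or 3 or any 1 of the siCtrl libraries. The next by p were OASL (0.35), CMPK2 (0.40) and TAP1 (0.25), the last a subunit of the peptide transporter for HLA class I, each with a limma adjusted p of 0.101. TRIM22 at 0.40 and TRIM21 at 0.31 were above the median of that list, TRIM5 at 0.12 was below it, and the other 5 were between -0.049 and 0.090. Earlier results of these data had shown the direction of this list, so it is no independent evidence.

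The genes most like TRIM21 over the 8 libraries, by the mean absolute gap between their deviations from the siCtrl mean in log2(FPKM + 1), were IRF7 (gap 0.0274), IFIT1 (0.0298) and IFIT2 (0.0353). IRF7 is the transcription factor that amplifies interferon production, and IFIT1 and IFIT2 are interferon-induced RNA-binding proteins. The median gap over the protein-coding genes compared with TRIM21 was 0.188. Closest to TRIM22 were OASL (0.0622), the phosphatase regulator PPP1R15A (0.0660) and the transcription factor BATF2 (0.0717), where the median gap was 0.233. TRIM21 and TRIM22 were at 0.0664 from each other. The log2(FPKM + 1) scale understates the change of TRIM22, and gaps with another pseudocount were not computed. By ratio of means TRIM22 was at 1.40, OASL at 1.28, PPP1R15A at 1.27, BATF2 at 1.46 and TRIM21 at 1.25. From TRIM22, its neighbour TRIM5 was at 0.171 and TRIM25, the farthest of the 8, at 0.253. Likeness here rests on 8 libraries in 2 groups and on one shared contrast.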

How the data were processed

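RNA was sequenced from 8 libraries of PC3 cells, grouped by sample title. The deposited table holds FPKM values by the authors. Per the submitters' processing notes, cutadapt 2.5, HISAT2 2.1.0 and featureCounts 1.6.3 were used; those notes name a mouse build, but all 58735 gene identifiers, starts, ends and strands match GENCODE release 29 on GRCh38. Whether counting used strand: not given in the sources used here. The gene length column, as deposited, equals the exonic length for the 8 genes and PRMT7.

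FPKM times length gave whole multiples of one fragment for 100% of values above 0 (tolerance 0.01), from which fragments were rebuilt. The FPKM values already include a scaling between libraries, and the rebuilt fragments do not. Counting errors and floors cover counting error only. The depth, 14526030 to 15724862 fragments, sets the precision given with each value. Tested genes had FPKM at or above 1 in 4 or more libraries. The test was limma 3.58.1 under R 4.3.3 on log2(FPKM + 1) (variance trend, two-sided, Benjamini-Hochberg, threshold 0.05). PRMT7 was tested by exact permutation over 70 assignments. Alternatives were another pseudocount, other filters and scalings, library weights, voom, a replicate block and leaving out each library. Motif and 50-base searches used python 3.11.15.

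The members and lists were chosen with earlier results of these data known. By rule the text names PRMT7, the 8 members, and from each list the called genes and the 4 of smallest p (6 for other TRIM genes). The rule also takes the 3 genes most like TRIM21 and the 3 most like TRIM22. Named outside it are cell markers, genes sharing exonic bases, the other genes near TRIM21 and TRIM22, TRIM28, TRIM34, TRIM16, TRIM44 and TRIM2. Genes called outside the lists are counted and not named.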

Additional observations from a re-analysis of the deposited data

Results flagged for a closer look

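Of 64 sets of 4 values (32 named genes in each of the groups), 5 held a library far from the other 3 by Dixon's 95% criterion, where chance gives about 1 in 20. TRIM26 had 22.9 FPKM in siPRMT7 replicate 2, against 26.3 to 26.7 FPKM in the other siPRMT7 libraries. TRIM38 had 8.54 FPKM in siCtrl replicate 3, against 9.24 to 9.29 FPKM in the other siCtrl libraries. SLC12A9-AS1 had 0.722 FPKM in siPRMT7 replicate 3, against 0.174 to 0.186 FPKM in the others. That is 4 fragments against 1 fragment in each of the others, around the floor of 3 fragments. RRM1 had 18.7 FPKM in siPRMT7 replicate 2, against 17.0 to 17.3 FPKM in the others. PPP1R15A had 115.5 FPKM in siPRMT7 replicate 1, against 129.1 to 129.6 FPKM in the others.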

How the results depend on the processing

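The 2 genes called over all genes became 1 with a pseudocount of 0.1, 1 with FPKM at least 5, 1 with quantile normalization, 5 with no filter, 58 with library weights and 12 with voom on rebuilt fragments, and 0 to 2 when any 1 library was left out. Of interferon-stimulated genes 2 were called on the TPM scale, 0 with quantile normalization, 11 with library weights, 3 with voom and 0 to 2 without any 1 library. Of genes near the TRIM members 2 were called with library weights. The other TRIM family and the partners had 0 called under every alternative run. PRMT7 was at -0.14 on the TPM scale, with an exact permutation p of 0.0286. It was at -0.072 without siPRMT7 replicate 2, with an exact permutation p of 0.114. The log2 difference of TRIM5 was 0.085 on the TPM scale, and that of TRIM22 was 0.47 with a pseudocount of 0.1 and 0.48 with voom. On the TPM scale the median over all genes tested was -0.035, against -0.0015 in the main fit. No other value of the 8 genes moved by more than its spread between libraries, and 0 of the 8 were called without any 1 library. Where only a pseudocount, filter or scaling differed, the cause was not tested. PRMT7 was not recomputed with library weights, and filters do not change its value.

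Replicate numbers did not pair the libraries: the correlation of deviations between same-numbered libraries was -0.0314 to 0.0613. With the replicate block 0 genes were called in all, and 0 interferon-stimulated genes. Depth limits the precision of TRIM22 and TRIM5, whose largest counting errors of 5.18% and 3.20% were above their SD between libraries in both groups. Both errors are those of siCtrl libraries, where each gene had its fewest fragments. In siPRMT7 libraries TRIM22 had 510 fragments or more and an SD of 4.43% of the mean, so the 5.18% overstates its counting error there. For TRIM21 (3.73%) and TRIM26 (2.58%) the largest counting error was above the SD of the siCtrl group only. For TRIM14, TRIM25, TRIM38 and TRIM56 it was below the SD of both groups.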
